A study of Mus musculus with 6 samples.

Results

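The E2F and retinoblastoma family was followed here as 10 genes, taken by symbol from the 25407 gene rows of a count and FPKM table (FPKM, in which a gene's fragments are divided by transcript length and by sequencing depth). They were the activator genes E2f1, E2f2 and E2f3, the repressor gene E2f4, the atypical repressor genes E2f7 and E2f8, the dimer partner gene Tfdp1, and the pocket protein genes Rb1, Rbl1 and Rbl2. Each symbol stood on 1 row, and all 10 rows passed the filter on low counts. The 6 RNA libraries were made from CT26.WT, a line of colon carcinoma cells from the mouse. The 3 control libraries are described in the series text only as a control group, and the 3 treated libraries came from cells given Cu2O@AuMn@HA, the hydrogen sulfide donor NaHS and near-infrared light (NIR). Whether a group's libraries came from separate cultures is not stated, so p-values measure the spread between these libraries, which may be technical. Neither dose nor exposure time is given in the sources used here, and both groups are the same single line.

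E2F proteins bind DNA at the promoters of genes for DNA synthesis and cell division. Most of them do so as a dimer with a DP protein, which Tfdp1 and Tfdp2 encode. The pocket proteins RB, p107 and p130, encoded by Rb1, Rbl1 and Rbl2, bind E2F proteins and hold those promoters silent until cyclin-dependent kinases phosphorylate them in late G1. E2F1, E2F2 and E2F3 pair with RB and act mainly as activators, whereas E2F4 pairs with p107 and p130 in resting cells, in the DREAM complex. E2F7 and E2F8 carry a pair of DNA-binding domains, need no DP partner and shut E2F promoters down again later in S phase. Several of these genes are themselves switched on by E2F at the start of S phase.

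Of the 10 genes, 7 were lower in treated cells, 1 was higher and 2 did not pass the test. E2f8 fell to 0.357 of its control level, Rbl1 to 0.502 and E2f7 to 0.557. E2f8 was the lowest of the members in this fit, but Rbl1 lay below it in each of the 4 alternatives that corrected for transcript GC content. E2f2 fell by 38.9%, E2f4 fell by 32.1%, E2f3 fell by 30.5% and Tfdp1 fell by 30.3%. Rbl2 rose by 32.3%. E2f1 and Rb1 did not pass. The test was edgeR's quasi-likelihood test with Benjamini-Hochberg adjustment over all 16212 rows tested, and a row passed at an adjusted p under 0.05. Among all rows 46.6% passed, 23.5% as lower and 23% as higher, so a call by itself was common. The split over all rows, 3735 higher and 3813 lower, moved with the scaling: it was 4688 and 3028 with upper quartile scaling. A correction for transcript GC content gave 4040 higher and 3702 lower when each library's level was kept at that of the edgeR scaling, and 2869 and 5071 when it was not. The second form was computed first, and the first, meant by "GC correction" from here on, was chosen after those values had been seen. The median log2 fold change (treated over control) was −0.54 over the 10 genes and 0.06 over all rows tested (0.18 with upper quartile scaling and −0.11 with the GC correction that was not recentred).

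Promoter sequences are shown first, because several members are E2F targets. RefSeq windows on GRCm38.p6, from 250 bases before to 50 after an annotated start, were at hand for 8 of the 10 genes. They were searched on both strands for the E2F letters TTT, then 2 bases that are each C or G, then CGC, and for the CHR letters TTTGAA, an element bound by the DREAM complex. No E2F match in a member window overlapped a CHR match. E2F letters were found in 5 of these 8 genes (E2f2, E2f3, E2f7, Tfdp1 and Rbl1), against 2.6% of all 27025 genes with a window and 485 of the 10640 such genes that were tested. Counted by window they were in 6 of 11 member windows, 2 of them overlapping windows of Tfdp1, against 2.26% of all 32851. CHR letters were found in 4 of the 8 genes (E2f2, E2f3, E2f8 and Rbl2), against 20.2% of all genes with a window, and in 4 of 11 member windows, against 17.9%. Each stretch below has 100 bases, 5′ to 3′ along the gene's strand, with matches in capitals. E2f8 (chr7:48881597-48881696, minus strand) had CHR letters 20 bases before its start, Rbl1 (chr2:157204535-157204634, minus strand) had E2F letters 18 bases before, and Tfdp1 (chr8:13338651-13338750, plus strand) had them 43 bases before. E2f3 (chr13:29986064-29986163, minus strand) had both, at 23 bases for the CHR and 11 for the E2F letters. Another window of E2f3, at a different annotated start, had neither. The E2F and CHR letters of E2f2 (not shown) lay in different windows. E2f7 (chr10:110745189-110745288, plus strand) had E2F letters 198 bases before its start, and Rbl2 (chr8:91069807-91069906, plus strand), the member that rose, had CHR letters 201 bases before. E2f1 (chr2:154569427-154569526, minus strand) is shown as the E2F gene that did not pass, and neither set of letters is in the window at hand. That window may lie within the gene rather than at its promoter. It therefore does not show whether the E2f1 promoter holds these letters, and E2f1 cannot be set against the other members on this point. Whether the annotated starts are the ones used in these cells was not tested, and sequence outside the windows was not searched.
E2f8: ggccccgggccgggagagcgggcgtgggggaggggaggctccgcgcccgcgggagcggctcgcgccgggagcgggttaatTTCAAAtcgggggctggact
Rbl1: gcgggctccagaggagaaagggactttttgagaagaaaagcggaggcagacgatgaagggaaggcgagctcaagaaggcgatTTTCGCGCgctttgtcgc
Tfdp1: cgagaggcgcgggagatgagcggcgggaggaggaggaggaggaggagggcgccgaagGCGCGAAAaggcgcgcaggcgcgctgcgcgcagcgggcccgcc
E2f3: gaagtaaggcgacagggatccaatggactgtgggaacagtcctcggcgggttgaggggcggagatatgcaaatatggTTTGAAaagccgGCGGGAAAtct
E2f7: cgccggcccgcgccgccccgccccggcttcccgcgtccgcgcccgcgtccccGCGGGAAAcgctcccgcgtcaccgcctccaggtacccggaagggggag
Rbl2: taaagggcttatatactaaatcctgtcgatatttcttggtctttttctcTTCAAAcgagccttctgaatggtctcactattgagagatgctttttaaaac
E2f1: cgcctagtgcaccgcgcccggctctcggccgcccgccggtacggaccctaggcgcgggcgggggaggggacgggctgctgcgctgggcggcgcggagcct

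A match is a description of these letters and not a measured binding site. The 485 tested genes with E2F letters in a window were lower in 40.2% and higher in 19% of cases, with a median log2 fold change of −0.19. The 10155 tested genes with a window but no E2F letters were lower in 26.5% and higher in 23.9% (median 0.02). With the GC correction the shares lower were 40.6% and 25.8%. Genes with CHR letters (1579 tested) and without them (9061) were lower in 27.7% and 27% of cases.

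As a check of the labelled line, the epithelial keratin genes Krt8 and Krt18 stood at 6.28 ± 0.758 and 65.4 ± 5.94 FPKM (mean ± SD, n = 3) in control cells, while Epcam and Cdh1 were listed at 0 in all 3 control libraries. Of 7 carcinoma line markers 5 were tested and 3 rose. The summed level of these markers was 65.8 to 76.04 FPKM (control) and 162 to 184 (treated). Most of it came from Krt18, at 162.6 ± 9.97 FPKM in treated cells, so the sum reads mainly as that gene. Of 12 markers of other cell types 10 had a row under their symbol and 7 were tested. Of these 2 rose (Cd68 and Dcn) and 3 fell (Col1a1, Col1a2 and Acta2). The summed level of the 10 ran from 119.5 to 129.2 FPKM (control) and from 113.6 to 130.9 (treated), most of it from the collagen genes and Cd68. The defining leukocyte gene Ptprc was listed at 0 in 5 of the 6 libraries. The part of Cd68 and the other markers in the members' values was not tested. Summed estimated counts ran from 71409968 to 81821380 over the control libraries and from 62328377 to 70323604 over the treated libraries. In a bulk sample fewer cells of a kind, such as cells in S phase, and less RNA per cell cannot be told apart.

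**Figure D1:**
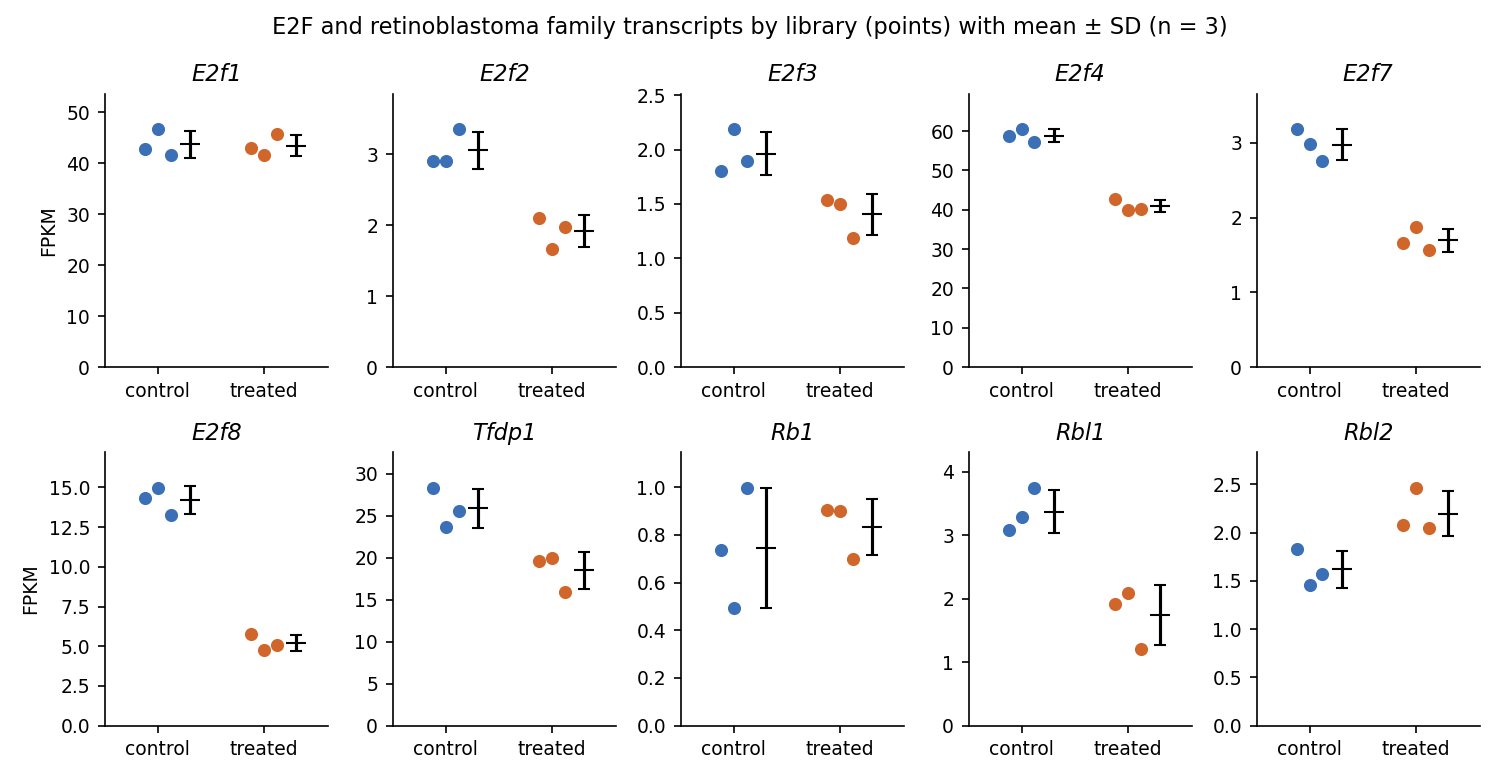
FPKM of each of the 10 genes (y axis, from 0, separate scale per gene) in the 3 control (blue) and 3 treated (orange) libraries, with mean ± SD in black. In 7 genes every treated library lies below every control library, in Rbl2 every treated library lies above, and in E2f1 and Rb1 the groups overlap.

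Of the activators, E2f1 was the abundant one and did not pass the test, while E2f2 and E2f3 fell. E2f1 (ENSMUSG00000027490, chromosome 2, 154401327 to 154411812 in the authors' coordinates, whose build is not given in the sources used here) stood at 42.8, 46.7 and 41.6 FPKM in control and 43.01, 41.6 and 45.8 in treated libraries. The highest value was a control library and the lowest a treated one, and the groups overlapped throughout. The fitted log2 fold change was −0.04 ± 0.09 (SE, adjusted p = 0.712), with a 95% interval of −0.24 to 0.15. Its sign changed with the scaling: it was 0.03 with library totals only and 0.08 with upper quartile scaling. After GC correction it was 0.14 (adjusted p = 0.0529), but −0.04 without the recentring (adjusted p = 0.606). E2f1 passed in none of 22 alternatives.

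E2f2 (ENSMUSG00000018983, chromosome 4, 135899705 to 135923368) stood at 2.90, 2.91 and 3.35 FPKM in control and 2.099, 1.66 and 1.97 in treated libraries. The treated libraries were all below the control libraries. Its log2 fold change was −0.71 ± 0.14 (adjusted p = 0.00238), and it passed in all 21 alternatives that tested it, between −0.778 and −0.478. E2f3 (ENSMUSG00000016477, chromosome 13, 30090558 to 30168374) stood at 1.80, 2.19 and 1.897 FPKM in control and 1.53, 1.496 and 1.19 in treated libraries. The groups did not overlap, but the gap between the lowest control and the highest treated library was small. Its log2 fold change was −0.52 ± 0.16 (adjusted p = 0.0205). That call was lost without control 2 (−0.43, adjusted p = 0.0632), without treated 3 (−0.43, 0.0574) and in 4 of the other alternatives. Over all 21 alternatives that tested E2f3 the adjusted p ran from 0.00629 to 0.0776. On the log2(FPKM + 1) scale over every row the value was −0.30.

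The repressor gene E2f4 was the most abundant member in control cells. E2f4 (ENSMUSG00000014859, chromosome 8, 106024295 to 106032002) stood at 58.8, 60.5 and 57.1 FPKM in control and 42.7, 39.96 and 40.2 in treated libraries. All treated libraries were lower, and libraries within a group differed little. The fitted log2 fold change was −0.56 ± 0.07 (adjusted p = 1.7e-04), or −0.35 after GC correction (9.2e-04).

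Both atypical repressor genes fell. E2f8 (ENSMUSG00000046179, chromosome 7, 48516177 to 48531344) stood at 14.3, 14.98 and 13.2 FPKM in control and 5.76, 4.76 and 5.07 in treated libraries. Even the highest treated library was below every control library by more than the spread within either group. Its log2 fold change of −1.49 ± 0.10 (adjusted p = 3.5e-06) stayed between −1.56 and −1.29 in all 22 alternatives. The uncharacterised row Gm2788, at 0.121 ± 0.01696 FPKM in control cells, overlaps E2f8 on the opposite strand. E2f7 (ENSMUSG00000020185, chromosome 10, 110581300 to 110623245) stood at 3.18, 2.98 and 2.76 FPKM in control and 1.66, 1.87 and 1.56 in treated libraries. The groups did not overlap, and the log2 fold change was −0.84 ± 0.11 (adjusted p = 1.7e-04). On the log2(FPKM + 1) scale, which understates changes of low genes, the value for E2f7 was −0.56.

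Tfdp1, which encodes the main partner of E2F proteins on DNA, fell by about as much as E2f4. Tfdp1 (ENSMUSG00000038482, chromosome 8, 13388751 to 13428448) stood at 28.4, 23.7 and 25.6 FPKM in control and 19.6, 19.96 and 15.9 in treated libraries. Treated 3 was the lowest library, and the groups did not overlap. Its log2 fold change was −0.52 ± 0.09 (adjusted p = 0.00104), and it passed in all 22 alternatives.

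Of the 3 pocket protein genes, Rbl1 fell, Rbl2 rose and Rb1 did not pass. The difference between Rb1 and Rbl2 was not tested. Rbl1 (p107; ENSMUSG00000027641, chromosome 2, 156987813 to 157046454) stood at 3.08, 3.28 and 3.75 FPKM in control and 1.92, 2.09 and 1.21 in treated libraries. All treated libraries were lower, treated 3 most, and the log2 fold change was −0.995 ± 0.19 (adjusted p = 0.00166). It was −1.40 after GC correction, −1.58 without the recentring and −0.686 on the log2(FPKM + 1) scale. Rbl2 (p130; ENSMUSG00000031666, chromosome 8, 91796685 to 91850472) stood at 1.83, 1.45 and 1.57 FPKM in control and 2.07, 2.46 and 2.04 in treated libraries. All treated libraries were higher, treated 2 most. Its log2 fold change was 0.40 ± 0.13 (adjusted p = 0.0277).

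The call for Rbl2 was lost without control 2 (0.337, adjusted p = 0.0898), control 3 (0.355, 0.109), treated 1 (0.444, 0.056) or treated 2 (0.305, 0.12). The GC correction kept it as recentred (0.40, adjusted p = 0.0102) but lost it without the recentring (0.224, 0.0805). In all it was lost in 9 of 21 alternatives, and over them the adjusted p ran from 0.00865 to 0.161. Rbl2 overlaps Aktip on the opposite strand over 12061 bases, and Aktip, at 2.44 ± 0.214 FPKM in control and 3.29 ± 0.290 in treated cells, rose by a log2 fold change of 0.40 (adjusted p = 0.0109). The library protocol marks strand with dUTP, but whether the counting used it is not stated, so the reads of both genes cannot be told apart in the overlap. The part of Aktip in the Rbl2 value was not tested.

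Rb1 (ENSMUSG00000022105, chromosome 14, 73421113 to 73563262) was the scarcest member. It stood at 0.738, 0.495 and 0.998 FPKM in control and 0.904, 0.898 and 0.698 in treated libraries. Those levels came from 259 to 452 estimated counts per library, and control 2 and control 3 were the lowest and the highest of all 6 libraries. The log2 fold change was 0.13 ± 0.24 (adjusted p = 0.686), with a 95% interval of −0.40 to 0.67. Its sign turned after GC correction (−0.33, adjusted p = 0.215, or −0.498 and 0.0651 without the recentring) and without control 2 (−0.09, 0.765), so no direction was called at this depth. Its transcript had the lowest GC content of the members, 41.2%, next to 42.1% for Rbl1 and 58.3% for E2f1. Lpar6 lies within Rb1 on the opposite strand and stood at 0.161 ± 0.0364 FPKM in control and 0.428 ± 0.224 in treated cells (adjusted p = 0.0158).

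**Figure D2:**
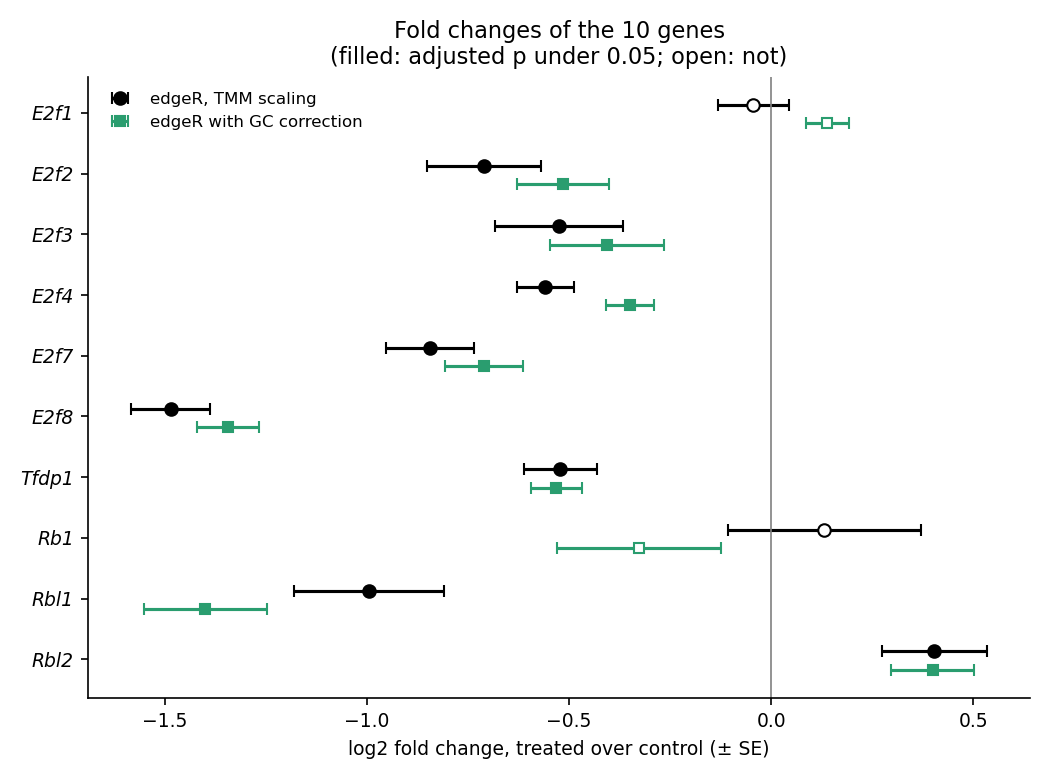
Log2 fold change, treated over control, with SE (x axis) for each of the 10 genes (y axis) in the edgeR fit (black circles) and after correction for transcript GC content (green squares); filled symbols passed an adjusted p of 0.05. In the edgeR fit E2f8 (−1.49), Rbl1 (−0.995) and E2f7 (−0.84) lie lowest, and with the correction Rbl1 (−1.40) lies below E2f8 (−1.34). The correction shown is the recentred one. Only Rbl2 (0.40) passes as higher, and Rb1 and E2f1 change sign with the correction. Without the recentring E2f1 kept its sign (−0.04) and Rbl2 did not pass (0.224, adjusted p = 0.0805).

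In counts of separated groups, all treated libraries were below all control libraries in 7 of 10 members, against 27.1% of all rows tested, and all above in 1 member, against 30.4%. In control cells E2f4 came first at 58.8 ± 1.68 FPKM, then E2f1 (43.7 ± 2.63), Tfdp1 (25.9 ± 2.33) and E2f8 (14.2 ± 0.886), with no overlap between neighbours. Rbl1 (3.37 ± 0.342), E2f2 (3.05 ± 0.260) and E2f7 (2.97 ± 0.210) formed a run of overlapping values. E2f3 (1.96 ± 0.200) overlapped Rbl2 (1.62 ± 0.191), and Rb1 was last. In treated cells E2f1 (43.5 ± 2.11) and E2f4 (40.97 ± 1.52) overlapped at the top, ahead of Tfdp1 (18.5 ± 2.22) and E2f8 (5.196 ± 0.509). Rbl2 moved to the head of the low run, at 2.19 ± 0.235, overlapping E2f2 (1.91 ± 0.224), which overlapped Rbl1 (1.74 ± 0.469), and that in turn E2f7 (1.695 ± 0.158). E2f3 (1.41 ± 0.191) and Rb1 (0.833 ± 0.117) came last, with no overlap.

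These shifts changed the makeup of the family. Summed over E2f1 to E2f8, the 8 E2F genes came to 129.8 ± 4.75 FPKM in control and 101.7 ± 2.26 in treated cells. E2f1 made up 33.1%, 34.6% and 33.2% of that sum in control and 41.3%, 41.8% and 45.1% in treated libraries. E2f7 and E2f8 together made up 13.6%, 13.3% and 12.8% in control and 7.12%, 6.66% and 6.54% in treated libraries. E2f4 went from 45.3% ± 0.388 to 40.3% ± 0.715. Each of these shares was separated between the groups.

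As ratios of FPKM + 0.1, the atypical repressors over the activators (E2f7 + E2f8 over E2f1 + E2f2 + E2f3) stood at a log2 of −1.43, −1.52 and −1.55 in control and −2.64, −2.74 and −2.86 in treated libraries. The ratio was lower in every treated library, by 1.25 on the log2 scale. E2f8 and E2f1 make up most of its terms, so it reads mainly as E2f8 over E2f1. The activator genes E2f2 and E2f3 fell as well (−0.71 and −0.52), as did E2f7 (−0.84). Rbl1 over Rbl2 stood at 0.72, 1.13 and 1.20 in control and −0.11, −0.22 and −0.71 in treated libraries, so Rbl1 was above Rbl2 in all control libraries and below it in all treated ones. Rb1 over E2f1 overlapped, at means of −5.74 ± 0.53 and −5.55 ± 0.25. In 2-sided exact permutation tests p was 0.1, 0.1 and 0.7 (0.15, 0.15 and 0.7 adjusted over the 3 ratios), and 0.1 is the smallest p that 3 against 3 libraries can give.

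**Figure D3:**
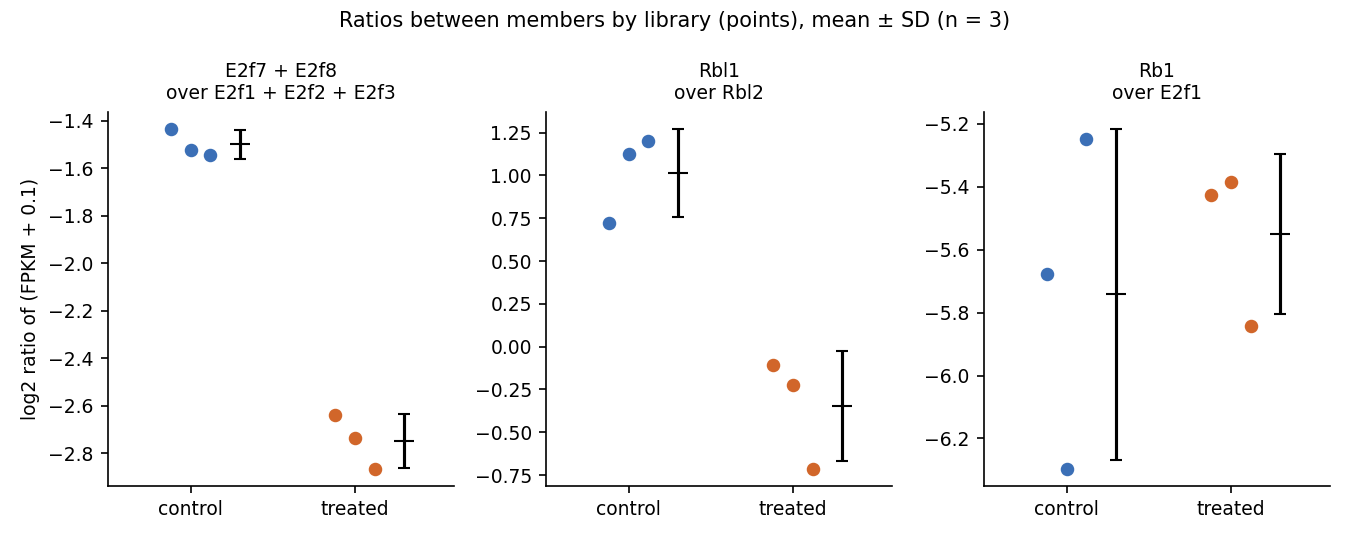
Log2 ratio of FPKM + 0.1 (y axis, not starting at 0, separate scale per panel) in the 3 control (blue) and 3 treated (orange) libraries, with mean ± SD in black. The first and second ratios are separated between groups (−1.50 against −2.75 and 1.02 against −0.35), and Rb1 over E2f1 overlaps.

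Of the 3 other E2F and DP genes, E2f5 and Tfdp2 rose and E2f6 did not pass. E2f5, another partner of the pocket proteins p107 and p130, rose from 3.85, 2.94 and 3.95 to 6.10, 6.90 and 4.58 FPKM (log2 fold change 0.67 ± 0.18, adjusted p = 0.0118; it passed in 19 of 21 alternatives). Tfdp2, the second DP gene, rose from 0.862, 0.815 and 0.858 to 1.69, 1.68 and 1.38 FPKM (0.86 ± 0.11, adjusted p = 1.8e-04). All treated libraries were above all control libraries in both. E2f6, a repressor that does not bind pocket proteins, was at 1.56 ± 0.134 FPKM in control and 1.23 ± 0.0911 in treated cells (−0.38 ± 0.15, adjusted p = 0.0595), and it passed in 3 of 21 alternatives.

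Further genes of the pathway were read in lists of general knowledge, by counts and medians only. The lists share genes, so their counts are not separate results. Among others, Mybl2, Ccne2 and Dnmt1 are also in the G1/S list below, and Ccnf and Cdc20 are also in the G2/M list. Of 8 genes of the MuvB core, B-MYB and FOXM1, which take over promoters from E2F for mitosis, 3 fell and 2 rose (median −0.24). Mybl2 (B-MYB), itself an E2F target, fell from 20.8 ± 0.628 to 4.46 ± 0.163 FPKM (−2.26 ± 0.08) and Foxm1 from 42.6 ± 1.48 to 12.7 ± 0.499 (−1.79 ± 0.08). The MuvB subunit gene Rbbp4 fell slightly (−0.23 ± 0.07), and Mybl1 rose from 0.272 ± 0.12 to 0.598 ± 0.169 FPKM (1.09 ± 0.32; 0.25 and adjusted p = 0.466 after GC correction). Lin37, another MuvB subunit gene, stood at 18.6 ± 3.01 and 23.5 ± 2.95 FPKM (adjusted p = 0.131; it passed after GC correction at 0.51).

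Of 12 G1 cyclins, kinases and their activators, which act on the pocket proteins, 5 fell and 3 rose (median −0.16). Cdk2 fell from 5.98 ± 0.382 to 3.53 ± 0.0993 FPKM (−0.80 ± 0.09), and Cdk6 rose from 1.86 ± 0.240 to 3.94 ± 0.154 (1.05 ± 0.10). Ccne2, a cyclin E gene and a classic E2F target, rose from 0.616 ± 0.208 to 3.93 ± 1.54 FPKM (2.64 ± 0.31; 1.75 after GC correction). Mnat1, of the CDK-activating kinase, rose by 0.94 ± 0.10, a call lost after GC correction (0.19, adjusted p = 0.12). Ccnd3 stood at 25.5 ± 1.10 and 23.4 ± 1.36 FPKM (adjusted p = 0.161). Of 7 CDK inhibitors only 5 had a row under their symbol. All 5 were tested, 1 rose and 1 fell (median 0.18). Cdkn1b (p27) rose from 3.98 ± 0.299 to 6.84 ± 0.882 FPKM (0.74 ± 0.12) and Cdkn2c (p18) fell from 15.1 ± 0.973 to 7.48 ± 0.262 (−1.05 ± 0.09). Cdkn1a (p21), the most abundant, stood at 183 ± 9.85 and 178 ± 12.3 FPKM (adjusted p = 0.507, or 0.14 and 0.0282 after GC correction). The CDK inhibitors that rose numbered 3 with the GC correction but 1 without the recentring.

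Of 16 chromatin factors that RB recruits for repression, 8 fell and 5 rose (median −0.23; 9 and 3 after GC correction). The DNA methyltransferase gene Dnmt1 fell by 1.54 ± 0.08, the histone methyltransferase gene Suv39h1 by 1.33 ± 0.08, the SWI/SNF ATPase gene Smarca4 by 0.92 ± 0.08 and the deacetylase gene Hdac1 by 0.68 ± 0.07 on the log2 scale. Ezh2 stood at 2.90 ± 0.377 and 2.74 ± 0.532 FPKM (adjusted p = 0.546; −0.29 and 0.0269 after GC correction). In the E2F6 repressor complex 3 of 10 genes fell and 3 rose (median −0.26; 5 and 3 after GC correction). L3mbtl2 (−1.42 ± 0.09), Max (−0.74 ± 0.12) and Wdr5 (−0.72 ± 0.09) fell, Rybp rose (1.09 ± 0.13), and Ring1 stood at 14.65 ± 0.0821 and 13.5 ± 0.941 FPKM (adjusted p = 0.144). Of 8 genes that control the turnover of E2F and pocket proteins, 6 fell and 1 rose (median −0.53). The cyclin F gene Ccnf, whose protein targets E2F proteins for destruction, fell by 0.96 ± 0.09, Cdc20 by 1.48 ± 0.08 and Cks1b by 1.06 ± 0.08 on the log2 scale. Mdm2 rose by 1.08 ± 0.10, and Skp2 stood at 1.57 ± 0.0288 and 1.57 ± 0.311 FPKM (adjusted p = 0.831).

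Genes under E2F control were lower in large numbers. Of 42 G1/S genes, 34 fell, 2 rose (Ccne2 and the clamp loader gene Rfc4) and 6 did not pass, with a median of −1.13. Besides Mybl2, the smallest p values were those of Rrm2, Pole and Cdc6 (−1.71, −1.89 and −2.11), and the most abundant that did not pass was Pcna (adjusted p = 0.17; −0.31 and 0.00475 after GC correction). In this list E2F letters were found in 15 of the 34 genes with a promoter window, or 44.1%. Of 30 G2/M genes under control of DREAM and B-MYB, 24 fell, 0 rose in the edgeR fit (2 were higher at an unadjusted p under 0.05, and 1 rose by DESeq2) and 6 did not pass, with a median of −1.38. Kif20a, a mitotic kinesin gene, fell from 68.97 ± 1.35 to 21.8 ± 2.22 FPKM (−1.70 ± 0.08), Bub1b by 1.46 ± 0.06, Birc5 by 1.32 ± 0.07 and Ube2c by 1.53 ± 0.08 on the log2 scale. Top2a stood at 7.66 ± 1.59 and 5.34 ± 1.77 FPKM (adjusted p = 0.0514; −0.83 and 0.00109 after GC correction). CHR letters were found in 19 of 25 of these genes with a window, or 76%. Both lists overlap gene sets already known to be lower in these libraries and are no independent evidence of that direction.

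**Figure D4:**
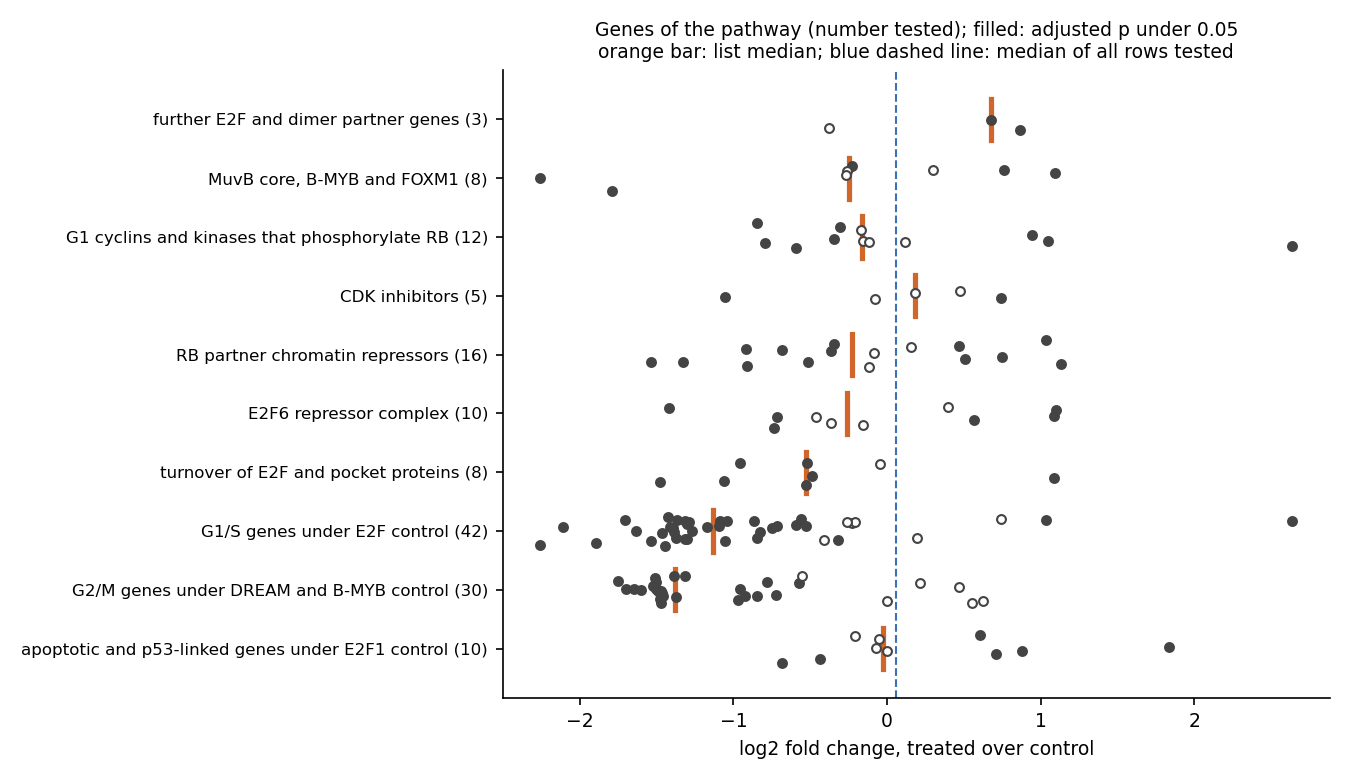
Log2 fold change, treated over control (x axis), of each tested gene (points; filled where the adjusted p was under 0.05) in 10 lists of the pathway (y axis, number tested in brackets); vertical positions within a list are spread for legibility. The medians (orange) of the G1/S (−1.13) and G2/M (−1.38) lists lie far below the median of all rows (blue dashes, 0.06), and Ccne2, at 2.64, stands apart on the right.

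Among genes by which E2F1 is known to promote cell death, 4 of 10 tested rose and 2 fell (median −0.03). The BH3-only genes Bbc3 (PUMA) and Bcl2l11 (BIM) rose, from 18.8 ± 1.57 to 31.5 ± 1.88 and from 2.46 ± 0.363 to 4.65 ± 0.391 FPKM (0.71 ± 0.09 and 0.88 ± 0.12). Trp53inp1 rose by 1.84 ± 0.25 (1.12 after GC correction), Bid fell by 0.69 ± 0.09, and Casp8 stood at 5.86 ± 0.913 and 5.19 ± 0.502 FPKM (adjusted p = 0.235).

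By profile over the 6 libraries, the genes nearest to E2f8 among 10347 with a mean of at least 1 FPKM were Nol6, Rcc1 and Cpsf3. Their root mean square distances on centred log2(FPKM + 1) were 0.0531, 0.0555 and 0.0568, and their log2 fold changes were −1.49, −1.42 and −1.37. Nearest to Rbl2 were Vezt, Rab28 and Adat2, at 0.0138, 0.0158 and 0.0226. Their log2 fold changes were 0.45, 0.25 and 0.27, against 0.40 for Rbl2, and Adat2 did not pass (adjusted p = 0.142).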

How the data were processed

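The authors deposited FPKM values and whole-number estimated counts per gene and library, per the file headers. StringTie 2.1.6, HISAT2 2.2.1, cutadapt 1.9, edgeR and DESeq2 are listed, with no role or order, per the submitters' processing notes. Neither the genome build and annotation nor the strand setting is given in the sources used here. Counts of 4 and 8 were over-frequent (4054 values of 4 against a mean of 2539.5 for its neighbours), so a fragment may weigh about 4 counts; totals overstate depth accordingly.

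The members and lists were chosen with earlier results of these data known. The whole table was fitted with edgeR 4.0.16 (R 4.3.3; default low count filter, TMM scaling, 2-sided quasi-likelihood test, Benjamini-Hochberg adjustment over all genes tested). Standard errors were taken as |log2 fold change| divided by √F. Alternatives were DESeq2 1.42.0, limma 3.58.1 on log2(FPKM + 1) or log2(FPKM + 0.1), other scalings and filters, counts divided by 4, a replicate block, libraries left out, and a loess correction (span 0.4) for GC content of the longest GENCODE M21 transcript, known for 97.2% of tested rows. Fold changes correlated with that GC content at a Spearman rho of −0.268 across genes, which are not independent replicates. The GC correction was first run without recentring each library. The recentring was added after those values were seen. The recentred form, printed as the GC correction, was therefore chosen after seeing the data. Values of the first form are given beside it for E2f1, Rb1, Rbl1 and Rbl2, of which only the call of Rbl2 differs. Single genes of the lists are given in the recentred form only. On simulated data the main edgeR fit recovered the fold changes that had been put in, and the alternatives were not simulated. Far fewer rows were changed in the simulation than passed here, so it does not test the scaling at this share. The fit recovered fewer calls than first required and called more unchanged genes than the nominal rate. The passing criterion was then loosened, so calls near the threshold deserve caution.

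Named genes are the 10 members, up to 4 genes per list with the smallest p past the threshold, the most abundant one that did not pass, and the 3 nearest profiles to E2f8 and Rbl2. Rfc4 was named after its value was seen, as were the other cell type and promoter genes outside that rule. Promoter sequences are from RefSeq, GRCm38.p6, whose coordinates are not those of the authors' file. In 9 of 11 member windows the first 20 transcribed bases were found in a GENCODE transcript of the gene.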

Additional observations from a re-analysis of the deposited data

How the results depend on the processing

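Of the members called, E2f2, E2f4, E2f7, E2f8, Tfdp1 and Rbl1 kept their direction and their call in every alternative that tested them. E2f3 lost its call with upper quartile scaling (−0.398), with limma over every row above 0 (−0.302), with a replicate block and GC correction together (−0.404) and without both libraries numbered 2 (−0.456), and with 1 library left out it ran from −0.613 to −0.432. Rbl2 lost its call with limma over every row (0.288), with the GC correction that was not recentred (0.224, and 0.224 with the block), with the replicate block (0.404) and without both libraries numbered 2 (0.272), and ran from 0.305 to 0.464 with 1 library left out. The count of rising members was then 0 in each of those, and 0 to 1 with 1 library left out. E2f1, never called, was positive with library totals only (0.0323), upper quartile scaling (0.0809) and without both libraries numbered 2 (0.0684). It was 0.139 with GC correction, alone and with the block, but −0.0367 and −0.0364 without the recentring. With 1 library left out it ran from −0.106 to 0.0127. Rb1, never called, was negative after GC correction (−0.326), without the recentring (−0.498), with the block and GC correction (−0.296, or −0.471 without the recentring) and without both libraries numbered 2 (−0.127), and ran from −0.0916 to 0.368 with 1 library left out. The log2 ratio of Rb1 over E2f1 differed by 0.190 (−0.0879 to 0.435 with 1 library left out); these settings for the ratios, and the recentred GC correction (alone and with the block), were chosen after the data were seen.

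At a mean FPKM of at least 5, fewer genes were tested: 4363 rows changed (1835 rising, 2528 falling), and 3 members fell and 0 rose. Rising G1/S genes numbered 1 there and with limma over every row, and 1 to 3 with 1 library left out. Rising G2/M genes numbered 1 with RLE scaling, DESeq2 or counts divided by 4, 2 with upper quartile scaling, and 0 to 2 with 1 library left out. Calls over all rows split into 3735 rising and 3813 falling, 4183 and 3351 with library totals only, and 4688 and 3028 with upper quartile scaling, which put the median of all rows at 0.13 and 0.18 in place of 0.06. The GC correction gave 4040 and 3702 as recentred and 2869 and 5071 (median −0.11) without the recentring, which was run first. Same-numbered libraries did not deviate together (correlations of 0.0399, −0.103 and 0.00645), so the block tests shared numbers only; with it 6275 rows changed in place of 7548. The cause of these differences was not tested. Rb1, with the fewest counts, had the widest interval of the members.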
